A study of Homo sapiens with 4 samples.

Results

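The replication-dependent histone genes were taken from the gene table by symbol, as the linker genes H1-1 to H1-6 and the numbered H2AC, H2BC, H3C and H4C genes. The table held 66 of them among 35993 genes. A gene was counted as measured when its mean count over the libraries was at least 10, which left 49 of the 66 among 16599 measured genes. By histone type these were 3 of 6 H1, 13 of 16 H2A, 13 of 17 H2B, 10 of 13 H3 and 10 of 14 H4 genes. Of the others, 8 had no count in any library and 9 had a mean count above 0 and below 10.

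Total RNA was sequenced from MDA-MB-231, a human breast cancer line of the triple-negative, mesenchymal kind, in 4 conditions with 1 library each. Cells transfected with siRNA against CTGF (gene symbol CCN2) were given kahweol, a coffee diterpene, at 50 µM for 48 h in medium without serum (siCTGF+KW) or left untreated (siCTGF), and cells transfected with control siRNA were given the same treatment (siCNT+KW) or left untreated (siCNT). Ribosomal RNA was depleted and no poly(A) selection was named. With 1 library each, a difference between a pair of libraries has no replicate check, and the intervals printed below cover counting error only.

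Core histones H2A, H2B, H3 and H4 form the protein spool of the nucleosome, and the linker histone H1 binds the DNA between spools. The replication-dependent genes lie in clusters, mostly lack introns, and are transcribed as DNA is copied in S phase. Their mRNAs do not end in a poly(A) tail but in a short hairpin, which the stem-loop binding protein SLBP holds through processing, translation and decay, and they are degraded when DNA synthesis stops.

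The hairpin is shown first because it is the feature that sets these mRNAs apart from nearly all others. GENCODE release 29 transcripts (GRCh38) of the members were searched on the transcript strand for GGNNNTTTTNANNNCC in which the 6 bases on either side of the 4-base loop pair fully. It was found in 26 of the 66 members, 21 of them measured, and in 43 of all 58721 genes (0.0732%). For the other members, a missing match says only that the letters are not in the annotated transcript. The 26 hairpins had 4 forms. The commonest form was held by 15 H2A, H2B and H3 genes, a form with an A in the loop by 4 genes including H2BC7, and the other forms by 7 H4 genes, 4 with C and 3 with T at that place. One example of each follows, 5′ to 3′, with the hairpin in capitals.
H2AC19: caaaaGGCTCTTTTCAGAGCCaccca
H2BC7: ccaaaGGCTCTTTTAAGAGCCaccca
H4C11: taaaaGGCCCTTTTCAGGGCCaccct
H4C14: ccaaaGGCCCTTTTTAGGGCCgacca

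These stretches lie at chr1:149851569-149851594 (+ strand), chr6:26199963-26199988 (+ strand), chr6:27824454-27824479 (+ strand) and chr1:149833027-149833052 (+ strand). In the annotated transcripts the hairpin was followed by 35, 732, 6 and 194 further bases in the same order, so it was not always at the annotated end. H2BC7 showed the largest fall with kahweol of any measured member and H4C11 one of the smallest, as given below.

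Promoters were read from the RefSeq table (GRCh38.p14), which gives 300 bases per gene, 250 before and 50 after the annotated start, and held 61 of the 66 members. The octamer ATTTGCAT, a site of the POU factor OCT1, was searched on both strands with CCAAT and TATAAA, and no pair of these motifs overlapped in a member. The octamer stood in 14 of 17 H2B and 11 of 15 H2A promoters, in 1 of 11 H3 promoters and in 0 of 6 H1 and 0 of 12 H4 promoters, against 1.77% of all 35116 promoters. Some H2A and H2B genes lie head to head and their windows overlap, so 1 site can be counted for both. H2BC7 held the octamer at -111 from its start, and H2AC7 held the same site at -119 on the other strand. The H3 gene with an octamer was H3C4, whose span overlaps H2AC7, and its octamer also stood at -119. CCAAT was found in 52 of the 61 members and 34.6% of all promoters, and TATAAA in 42 of the 61 and 11.5% of all. A few H2B promoters are shown, as the 150 bases before the start with motifs in capitals (CCAAT may read ATTGG on the other strand): H2BC7, which fell most with kahweol, H2BC11, an abundant gene, H2BC15, whose change with kahweol did not pass the test, and H2BC8, which was nearly silent.
H2BC7: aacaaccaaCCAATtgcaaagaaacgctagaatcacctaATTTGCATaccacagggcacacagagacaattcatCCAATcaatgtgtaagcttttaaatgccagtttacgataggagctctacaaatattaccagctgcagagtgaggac
H2BC11: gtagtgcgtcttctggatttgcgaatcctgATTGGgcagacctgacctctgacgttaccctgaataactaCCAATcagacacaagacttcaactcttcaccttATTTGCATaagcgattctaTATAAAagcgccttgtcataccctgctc
H2BC15: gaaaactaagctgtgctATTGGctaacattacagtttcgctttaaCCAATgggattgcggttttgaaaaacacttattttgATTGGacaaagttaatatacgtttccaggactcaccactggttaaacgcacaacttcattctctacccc
H2BC8: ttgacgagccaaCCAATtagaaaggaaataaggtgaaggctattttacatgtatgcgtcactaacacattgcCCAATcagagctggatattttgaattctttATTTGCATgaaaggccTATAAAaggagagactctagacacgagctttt

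They lie at chr6:26199366-26199515 (+ strand), chr6:27132796-27132945 (- strand), chr6:27838419-27838568 (+ strand) and chr6:26216689-26216838 (- strand). H2BC15 lacked the octamer and TATAAA in the whole window, whereas the nearly silent H2BC8 held all 3 motifs. Among measured H2B genes, median log2 fold changes in siCTGF+KW against siCTGF and in siCNT+KW against siCNT were -1.24 and -0.90 for the 10 with an octamer, and -1.10 and -0.91 for the 3 without. Among measured H2A genes the medians were -1.70 and -1.20 for the 8 with an octamer, and -1.32 and -0.90 for the 4 without. No test was made, the H2A and H2B groups include sites shared between partners, and 7 of 16 unmeasured members with a promoter held the octamer too.

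Total counts were 44781516 to 59129784 per library, and 1 count corresponded to 1 read of about 101 bases, so a fragment gave 2 counts. CCN2, the siRNA target, had 22.5 TPM in siCTGF+KW, 140.3 in siCNT+KW, 53.9 in siCTGF and 140.2 in siCNT, a log2 fold change of -2.55 (-2.67 to -2.44) in siCTGF+KW against siCNT+KW and -1.32 (-1.40 to -1.24) in siCTGF against siCNT. Small noncoding RNAs took 3.86% and 3.60% of counts in siCTGF+KW and siCNT+KW, against 2.74% and 2.43% in siCTGF and siCNT, and mitochondrial rRNA took 6.01% and 4.33%, against 3.11% and 3.94%. With both left out of the scaling, the summed histone log2 ratio was -1.14 in siCTGF+KW against siCTGF and -0.75 in siCNT+KW against siCNT. Mesenchymal markers such as VIM were abundant at 2501 TPM in siCTGF+KW, 2082 in siCNT+KW, 2819 in siCTGF and 2750 in siCNT, while the 5 fibroblast markers summed to between 3.02 and 4.63 TPM, the 4 endothelial ones to between 0.987 and 3.01 TPM and the 5 blood cell ones to between 0.319 and 1.10 TPM. Among the luminal markers ESR1 did not exceed 0.028 TPM, whereas KRT8, KRT18 and KRT19 were clearly detected, with at least 273, 464 and 119 TPM.

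Histone mRNA was lower in both kahweol libraries. Levels are given as TPM, read density per base of transcript set to a common total, which divides by gene length. The measured members summed to 13000 TPM in siCTGF+KW, 16823 in siCNT+KW, 34779 in siCTGF and 33465 in siCNT. Both libraries with kahweol lay well below both without, and within each arm the sum was 0.452 times as high in siCTGF+KW as in siCTGF and 0.590 times as high in siCNT+KW as in siCNT on the scale of TMM-scaled CPM, counts relative to library size. On that scale the sums were 4001 CPM in siCTGF+KW, 4854 in siCNT+KW, 8860 in siCTGF and 8226 in siCNT. The log2 ratio was -1.15 (-1.16 to -1.14) for siCTGF+KW against siCTGF and -0.76 (-0.77 to -0.75) for siCNT+KW against siCNT, with 95% exact Clopper-Pearson intervals on fragments. As a share of all counts the members, measured or not, took 0.376% in siCTGF+KW, 0.468% in siCNT+KW, 0.925% in siCTGF and 0.869% in siCNT. In bulk RNA, fewer cells in S phase and less histone mRNA per cell cannot be told apart.

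**Figure D1:**
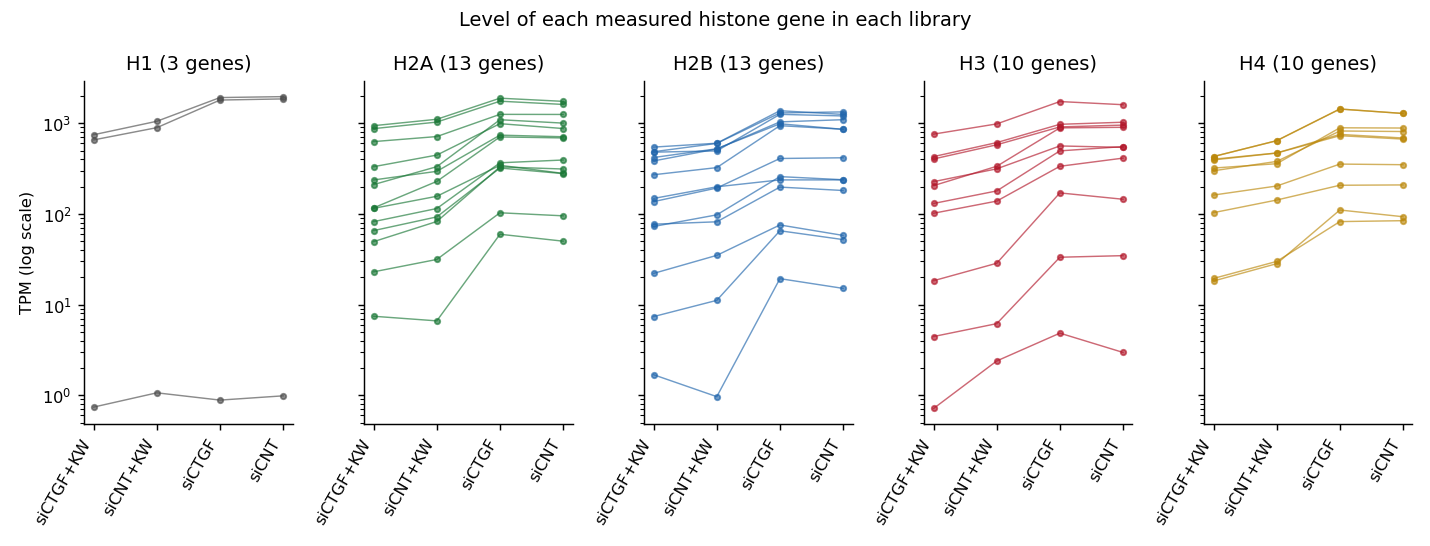
Level of each measured histone gene (TPM, log axis) in the 4 libraries, with 1 panel per type and 1 line per gene. All lines but that of H1-6 are lower in both kahweol libraries than in both others.

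The fall was found in every histone type. In siCTGF+KW against siCTGF the log2 ratio of the sums was -1.15 (-1.18 to -1.12) for H1, -1.16 (-1.18 to -1.14) for H2A, -1.12 (-1.14 to -1.09) for H2B, -1.16 (-1.18 to -1.13) for H3 and -1.16 (-1.19 to -1.13) for H4. In siCNT+KW against siCNT it was -0.75 (-0.77 to -0.72) for H1, -0.76 (-0.78 to -0.74) for H2A, -0.84 (-0.86 to -0.82) for H2B, -0.72 (-0.75 to -0.70) for H3 and -0.69 (-0.72 to -0.67) for H4. The ratios of the types spanned less within an arm than the distance between the arms. H2B had the lowest ratio in siCNT cells and the highest in siCTGF cells. Shares of the types among the members moved little, with H2A at 28.3%, 27.6%, 28.6% and 27.8% of the members' summed TPM in siCTGF+KW, siCNT+KW, siCTGF and siCNT. H1 took 10.8%, 11.6%, 10.7% and 11.4% in the same libraries.

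**Figure D2:**
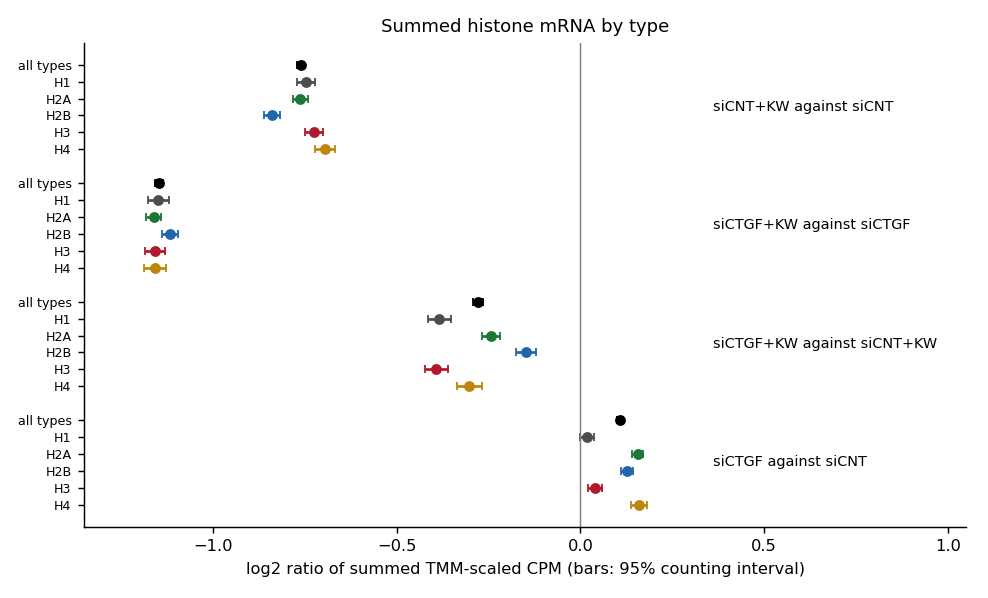
Log2 ratio of summed TMM-scaled CPM for all measured members and for each type in the 4 comparisons, with 95% counting intervals as bars. Both kahweol comparisons lie between -0.69 and -1.16, and the siCTGF comparisons lie below 0 with kahweol and at or above 0 without it.

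Gene by gene, 47 of the 49 measured members were under 0.7-fold in siCTGF+KW against siCTGF, against 24.2% of all genes, and 37 of 49 in siCNT+KW against siCNT, against 26.3% of all genes. None was over 1.3-fold in either comparison, where 28.4% and 28.1% of all genes were. The median log2 fold change of the members was -1.31 in siCTGF cells and -0.87 in siCNT cells, with medians over all genes of -0.0034 and -0.018. In 48 of the 49, both kahweol libraries were below both libraries without kahweol, which held for 37.1% of all genes, and H1-6 was the exception.

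An additive edgeR quasi-likelihood fit with siRNA and kahweol as terms gave a test across the libraries. With 4 libraries and 3 coefficients, each gene had 1 degree of freedom for its spread, and any departure from additivity counts as noise. The fit moderates that spread across genes, so each p-value leans on the spread of other genes too. With kahweol it called 46 of the 49 members lower (23.6% of all genes) and 0 higher (22.9% of all genes) at an adjusted p under 0.05, and the 46 also included every member with an unadjusted p under 0.05. DESeq2, limma-voom and a fit without the siRNA term each gave 46 lower and 0 higher as well. The called members had log2 fold changes of -3.40 to -0.45, SE of 0.0722 to 0.395 and adjusted p of 6.34e-05 to 0.0105, with a median over the measured members of -1.08. All 13 H2A and all 10 H4 genes were called, with 12 of 13 H2B, 9 of 10 H3 and 2 of 3 H1 genes. The 3 without a call were H2BC15, H3C6 and H1-6.

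Among the linker histones, H1-2 and H1-4 supplied nearly all of the mRNA. H1-2 had 748 TPM in siCTGF+KW, 1052 in siCNT+KW, 1921 in siCTGF and 1967 in siCNT. H1-4 had 656 TPM in siCTGF+KW, 895 in siCNT+KW, 1804 in siCTGF and 1857 in siCNT. Both were lower in each kahweol library than in any other, with additive log2 fold changes of -0.89 (SE 0.10, adjusted p = 0.00037) for H1-2 and -1.01 (SE 0.09, adjusted p = 0.00016) for H1-4. H1-6, the testis linker histone, stayed near 1 TPM, with 0.743 TPM in siCTGF+KW, 1.07 in siCNT+KW, 0.886 in siCTGF and 0.988 in siCNT. Its 15 to 22 counts per library carried wide intervals, 0.02 (-1.46 to 1.66) in siCTGF+KW against siCTGF and 0.29 (-0.998 to 1.77) in siCNT+KW against siCNT, and no change was detectable at this depth. H1-1 had a mean count of 1, and H1-3 and H1-5 were listed at 0 in every library.

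The H2A genes were led by a neighbouring pair on chromosome 1. H2AC19 had 941 TPM in siCTGF+KW, 1107 in siCNT+KW, 1890 in siCTGF and 1745 in siCNT. H2AC18 had 873 TPM in siCTGF+KW, 1031 in siCNT+KW, 1752 in siCTGF and 1614 in siCNT. Their transcripts share 96.8% and 100% of their 100-base stretches, so most reads could belong to either gene and only the sum of the pair can be read. Next in level, H2AC20 had 628 TPM in siCTGF+KW, 714 in siCNT+KW, 1254 in siCTGF and 1251 in siCNT and H2AC6 had 332 TPM in siCTGF+KW, 446 in siCNT+KW, 990.2 in siCTGF and 875 in siCNT. The pair and H2AC20 were among the members that fell least, and H2AC6 was at the members' median in siCTGF cells, with log2 fold changes in siCTGF+KW against siCTGF and siCNT+KW against siCNT of -0.75 and -0.43 for H2AC19, -0.74 and -0.42 for H2AC18, -0.74 and -0.58 for H2AC20 and -1.31 and -0.74 for H2AC6.

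Other H2A genes fell further. H2AC4 had 49.5 TPM in siCTGF+KW, 82.6 in siCNT+KW, 331 in siCTGF and 313 in siCNT, and H2AC12 had 117 TPM in siCTGF+KW, 229 in siCNT+KW, 707 in siCTGF and 689 in siCNT. In siCTGF+KW against siCTGF their log2 fold changes were -2.47 (-2.65 to -2.31) and -2.34 (-2.45 to -2.22). H2AC7 changed most of the H2A genes, with 7.45 TPM in siCTGF+KW, 6.63 in siCNT+KW, 59.7 in siCTGF and 50.1 in siCNT and -2.71 (SE 0.18, adjusted p = 6.4e-05) in the additive fit. H2AC7 lies at chr6:26199012-26199521 (GRCh37) inside the annotated span of H3C4, chr6:26197012-26199521 on the same strand, so reads of the overlap could belong to either gene.

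The most abundant H2B genes were H2BC4, H2BC5, H2BC18 and H2BC17. H2BC4 had 546 TPM in siCTGF+KW, 603 in siCNT+KW, 1376 in siCTGF and 1252 in siCNT, and H2BC5 had 486 TPM in siCTGF+KW, 600.0 in siCNT+KW, 1301 in siCTGF and 1335 in siCNT. H2BC18, on chromosome 1, had 480.4 TPM in siCTGF+KW, 496 in siCNT+KW, 1254 in siCTGF and 1205 in siCNT. H2BC17 had 384 TPM in siCTGF+KW, 521 in siCNT+KW, 1036 in siCTGF and 1095 in siCNT. All 4 were lower in both kahweol libraries than in the others, and their additive log2 fold changes lay between -1.08 for H2BC18 and -0.95 for H2BC4.

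Among members with a mean count of at least 50, both ends of the range with kahweol were H2B genes. H2BC7 had 1.69 TPM in siCTGF+KW, 0.967 in siCNT+KW, 19.4 in siCTGF and 15.1 in siCNT, from counts of 20, 11, 227 and 197 in that order. It was far lower in both kahweol libraries, at log2 -3.11 (-4.32 to -2.29) in siCTGF+KW against siCTGF and -3.44 (-4.98 to -2.32) in siCNT+KW against siCNT, and -3.40 (SE 0.40, adjusted p = 0.00042) in the additive fit. H2BC14 had 7.39 TPM in siCTGF+KW, 11.2 in siCNT+KW, 65.3 in siCTGF and 52.2 in siCNT, again far lower with kahweol, at log2 -2.85 (-3.38 to -2.44) in siCTGF cells. H2BC15 had 148 TPM in siCTGF+KW, 199 in siCNT+KW, 237 in siCTGF and 238 in siCNT. It was the least lowered of the measured H2B genes, and both kahweol libraries still lay below the others. The log2 fold change was -0.42 (-0.54 to -0.29) in siCTGF+KW against siCTGF and -0.02 (-0.14 to 0.09) in siCNT+KW against siCNT, and -0.22 (SE 0.11, adjusted p = 0.15) in the additive fit, which did not call it. Its head-to-head partner H2AC15 had 23.0 TPM in siCTGF+KW, 31.5 in siCNT+KW, 103 in siCTGF and 95.4 in siCNT, with log2 -1.89 and -1.36 in the same comparisons.

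Of 10 such H2A and H2B pairs with starts within 500 bases of each other, 8 had both genes measured. The H2A gene had the lower log2 fold change in 5 of the 8 in siCTGF+KW against siCTGF and in 4 of the 8 in siCNT+KW against siCNT, so neither partner was regularly the more lowered. H2AC7 and H2BC7 formed the pair with the largest falls, and H2AC15 with H2BC15 the pair with the widest gap between partners.

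H3 mRNA came mainly from H3C2 and from the near-identical pair H3C14 and H3C15. H3C2 had 759 TPM in siCTGF+KW, 984 in siCNT+KW, 1736 in siCTGF and 1603 in siCNT. H3C14 had 429 TPM in siCTGF+KW, 612 in siCNT+KW, 974 in siCTGF and 1027 in siCNT, and H3C15 had 404 TPM in siCTGF+KW, 579 in siCNT+KW, 912 in siCTGF and 955 in siCNT. The transcripts of the pair share 100% of their 100-base stretches, so only their sum can be read. H3C3 had 205 TPM in siCTGF+KW, 336 in siCNT+KW, 889.6 in siCTGF and 903 in siCNT. H3C3 fell further than H3C2, H3C14 or H3C15. Its log2 fold changes were -1.85 and -1.20 in siCTGF+KW against siCTGF and siCNT+KW against siCNT, against -0.93 and -0.47 for H3C2.

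The largest falls of the type were in low genes. H3C12 had 18.4 TPM in siCTGF+KW, 28.6 in siCNT+KW, 171 in siCTGF and 145 in siCNT, with -2.52 (SE 0.19, adjusted p = 8.8e-05) in the additive fit. Its neighbour H2AC17 shares 84.0% of its 100-base stretches with transcripts annotated to H3C12. H3C4 had 4.45 TPM in siCTGF+KW, 6.17 in siCNT+KW, 33.3 in siCTGF and 34.7 in siCNT, with -2.45 (SE 0.18, adjusted p = 8.2e-05) and the overlap with H2AC7 described above. H3C6 had counts of 9, 28, 62 and 42 in siCTGF+KW, siCNT+KW, siCTGF and siCNT, too few to place, with log2 -2.29 (-4.63 to -1.17) in siCTGF cells and -0.05 (-1.14 to 0.99) in siCNT cells.

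Most H4 genes encode the same protein from separate loci. H4C14 had 429.6 TPM in siCTGF+KW, 643 in siCNT+KW, 1437 in siCTGF and 1283 in siCNT. H4C15 had 429.8 TPM in siCTGF+KW, 643 in siCNT+KW, 1436 in siCTGF and 1283 in siCNT, and the transcripts of the pair share 100% of their 100-base stretches. H4C3 had 321 TPM in siCTGF+KW, 358 in siCNT+KW, 892 in siCTGF and 886 in siCNT, and H4C12 had 402 TPM in siCTGF+KW, 470.1 in siCNT+KW, 754 in siCTGF and 688 in siCNT. All were lower with kahweol, but by unequal amounts, with log2 -1.48 and -0.77 for H4C14 in siCTGF+KW against siCTGF and siCNT+KW against siCNT, and -0.65 and -0.32 for H4C12. H4C11, the neighbour of H4C12, with which it shares 77.7% of its 100-base stretches, had the smallest called change, -0.45 (SE 0.11, adjusted p = 0.0097). H4C4 had 18.2 TPM in siCTGF+KW, 28.3 in siCNT+KW, 111 in siCTGF and 93.3 in siCNT and changed most, at -1.90 (SE 0.21, adjusted p = 0.00037).

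**Figure D3:**
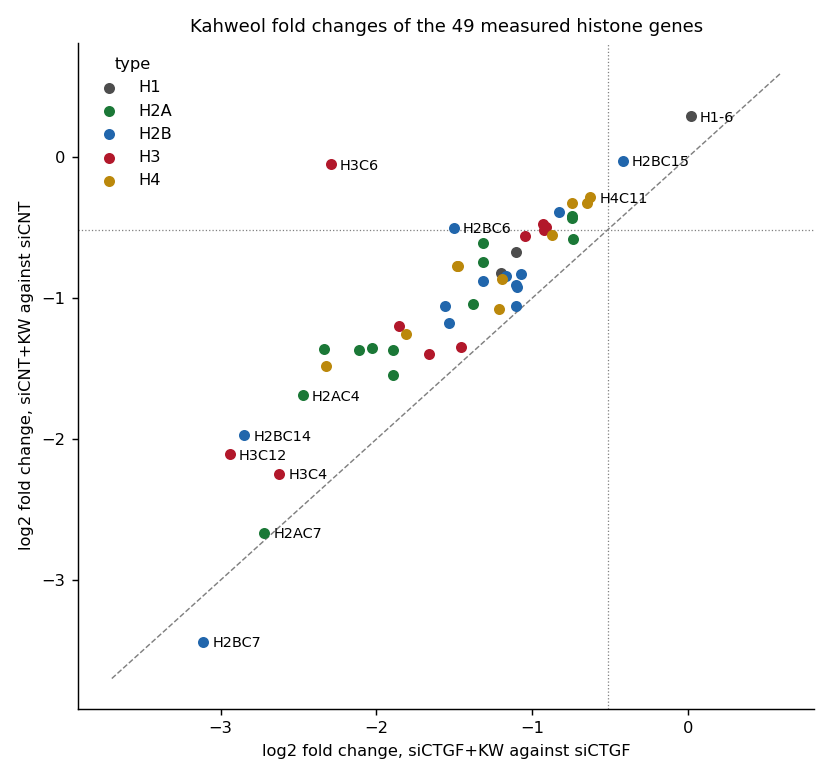
Log2 fold change of each measured histone gene in siCTGF+KW against siCTGF (x axis) and in siCNT+KW against siCNT (y axis), coloured by type, with the dashed line where both are equal and dotted lines at 0.7-fold. Points run from H2BC7 at the lower left to H2BC15 and H1-6 at the upper right, and 48 of 49 lie above the dashed line.

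The comparisons of kahweol in siCTGF cells and in siCNT cells share no library, and the members kept a like order in both. Over the 47 members with a mean count of at least 50, Pearson's r was 0.92 and Spearman's rho 0.92 across genes, which are not independent and include copies that share reads. The log2 fold change was lower in siCTGF cells than in siCNT cells in 48 of the 49 members, with H2BC7 as the exception, against 49.3% of all genes, a difference that was not tested. Members with a higher mean TPM fell less, with a rho between mean TPM and the log2 fold change of 0.57 in siCTGF cells and 0.53 in siCNT cells over the same 47. The mean takes in the kahweol libraries, so a smaller fall itself raises it. The 11 members on chromosome 1, all measured, had medians of -1.10 and -0.61 in siCTGF and siCNT cells, and the 38 measured of 55 on chromosome 6 had medians of -1.42 and -0.97. Counted in the shortest transcript of each member, 17 of the 49 held a 100-base stretch of another member, and the other 32 had medians of -1.39 and -0.98, with 30 called lower in the additive fit. By a wider count chosen after the values were seen, which takes any annotated transcript and overlapping genes on the same strand, 20 of the 49 shared sequence, H3C12, H2AC7 and H3C4 among them. The other 29 had medians of -1.31 and -0.88, with 27 called lower.

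The unmeasured members lay mostly in runs along chromosome 6. Between chr6:26216428-26273640 (GRCh37), 57.2 kb, stood 10 neighbouring members, H2BC8, H2AC8, H3C6, H1-3, H4C6, H4C7, H3C7, H2BC9, H3C8 and H2BC10, with no count above 62 in any library. H3C6 was the only measured one, and 5 of the 10 were listed at 0 throughout. The genes on either side, H4C5 and H4C8, had mean counts of 572 and 2767. A second run of 4 members, H2AC16, H1-5, H3C11 and H4C13, at chr6:27833107-27841289, 8.18 kb, held no count above 1, between H2BC15 and H3C12 with mean counts of 2531 and 1226. Another group, H2AC1, H2BC1 and H1-1, stood at the edge of the cluster with no count above 10. H2AC1 and H2BC1 are the testis forms of these histones. No other gene of the table lay wholly within the first or the second run.

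**Figure D4:**
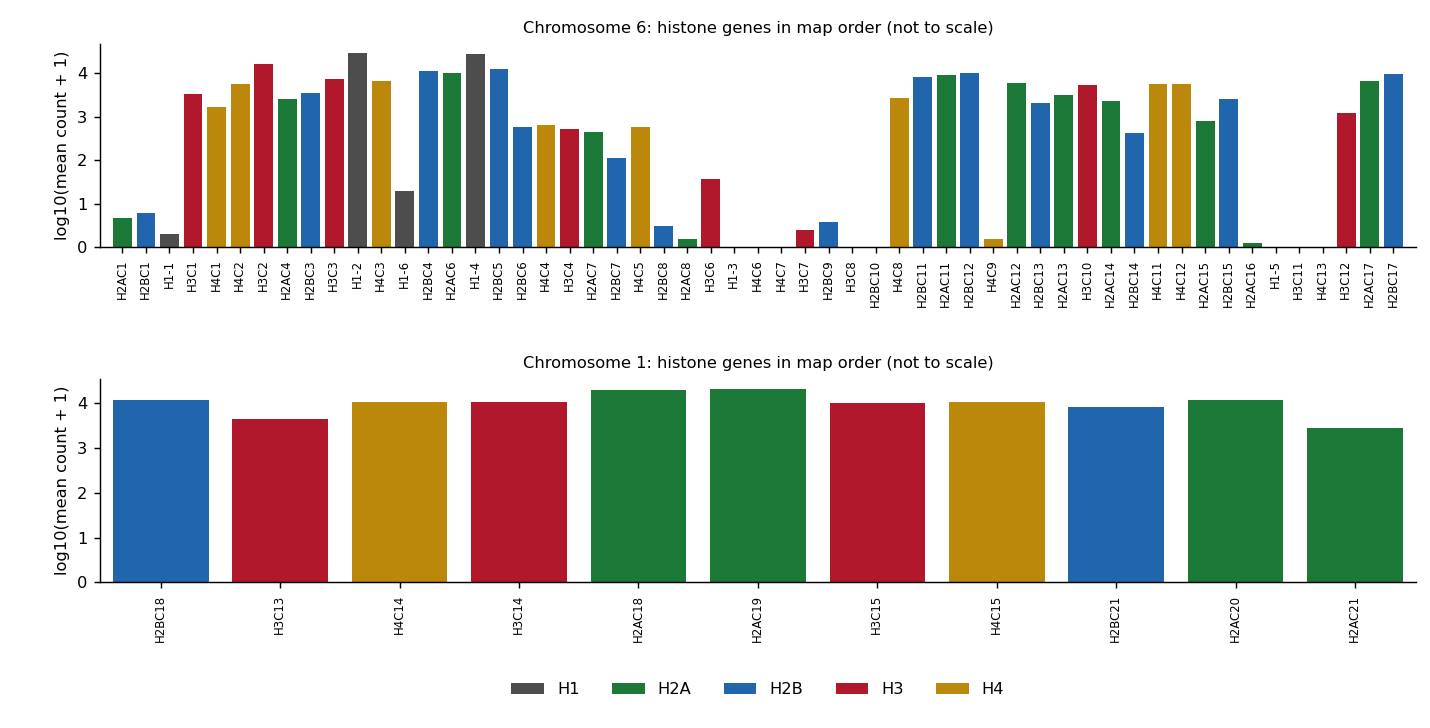
Mean count of each of the 66 histone genes (log10 of mean count + 1), in map order on chromosomes 6 and 1 and coloured by type, not to scale. The runs from H2BC8 to H2BC10 and from H2AC16 to H4C13 are low between genes with mean counts of 572 or more, and H3C6 (mean count 35.2) is the only measured gene in them.

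With the siRNA as the variable, the members differed less. In siCTGF+KW against siCNT+KW, 1 of the 49 was over 1.3-fold (14.7% of all genes) and 9 were under 0.7-fold (7.83% of all genes), with a median of -0.36. In siCTGF against siCNT, 3 were over 1.3-fold (9.63% of all genes) and 0 under 0.7-fold (8.99% of all genes), with a median of 0.13. Medians over all genes were 0.0041 and -0.0071. Log2 fold changes were below 0 in 45 of 49 members with kahweol, against 49.2% of all genes, and in 8 of 49 without it, against 51.1% of all genes. These comparisons each share a library with the kahweol comparisons, so a high or low value in one library enters both.

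The summed log2 ratio was -0.28 (-0.29 to -0.27) in siCTGF+KW against siCNT+KW and 0.11 (0.10 to 0.12) in siCTGF against siCNT. By type, H3 and H1 were lowest with kahweol at -0.39 and -0.38, and H2B least changed at -0.15. The additive fit called 0 members higher with siCTGF (0.0663% of all genes) and 0 lower (0.0602% of all genes). It did not call CCN2, the siRNA target, either, at -1.93 (SE 0.25, adjusted p = 0.055 in edgeR's quasi-likelihood fit). The lack of calls with siCTGF therefore does not show that the members were unchanged. At an unadjusted p under 0.05 edgeR gave 1 member, H3C1, DESeq2 and limma-voom gave 1 each and the fit without the kahweol term 0, and these alternatives also called 0 members at an adjusted p under 0.05. H3C1 had 102 TPM in siCTGF+KW, 139 in siCNT+KW, 336 in siCTGF and 413 in siCNT, at log2 -0.36 (-0.51 to -0.20) in siCTGF+KW against siCNT+KW and -0.24 (-0.32 to -0.16) in siCTGF against siCNT, with an adjusted p of 0.36 in edgeR's quasi-likelihood fit.

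At the ends of the siCTGF+KW against siCNT+KW comparison, among members with a mean count of at least 50, H2AC12 had log2 -0.88 (-1.01 to -0.75), H2AC4 -0.65 (-0.86 to -0.44) and H3C3 -0.62 (-0.72 to -0.52). H2BC7 was at 0.74 (-0.91 to 2.44), H2AC7 at 0.25 (-0.38 to 0.86) and H2BC18 at 0.06 (-0.01 to 0.13), all with intervals that include 0. In siCTGF against siCNT the highest at this count were H2BC6 at 0.44 (0.24 to 0.64), H2BC7 at 0.41 (0.02 to 0.83) and H2BC14 at 0.38 (0.17 to 0.59), and the lowest H3C1, H3C13 at -0.10 (-0.17 to -0.03) and H2AC13 at -0.05 (-0.13 to 0.03). H3C6, below this count, was beyond them, at -1.51 (-3.91 to -0.18) in siCTGF+KW against siCNT+KW and 0.74 (-0.08 to 1.64) in siCTGF against siCNT. H2BC6 had 22.1 TPM in siCTGF+KW, 35.0 in siCNT+KW, 75.7 in siCTGF and 58.0 in siCNT, above siCNT in siCTGF and below siCNT+KW in siCTGF+KW.

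Genes that act with these histones gave a mixed picture with kahweol. Counts are of measured genes called by the additive edgeR fit at an adjusted p under 0.05, set against 23.6% lower and 22.9% higher of all genes, and paired values are log2 fold changes in siCTGF+KW against siCTGF and then siCNT+KW against siCNT. Both measured cluster genes outside the symbol rule were lower, with -1.85 and -2.26 for H2AW and -2.14 and -1.53 for H2BU1. Of 12 replication-independent variants, which are also made outside S phase, 6 were lower and 1 was higher. MACROH2A2 was lower (-1.92 and -2.12), while H3-3B, a gene for the replacement histone H3.3, was higher (0.56 and 0.47). H2AZ1 was called lower (-0.40 and -0.19), and H3-3A (0.04 and 0.17) and H2AX (-0.09 and -0.23) were not called.

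Of 17 genes of histone mRNA 3′ end processing, 6 were lower and 3 higher. SLBP had 109 TPM in siCTGF+KW, 117 in siCNT+KW, 172 in siCTGF and 180.4 in siCNT, lower in both kahweol libraries at -0.40 and -0.40. LSM11, a subunit of the U7 particle that cuts the pre-mRNA, was lower at -0.62 and -0.32, and its partner LSM10, with a mean count of 105, was not called at -0.51 and 0.62. ZNF473, which binds the U7 particle, was higher at 1.54 and 1.71, as was CASP8AP2 at 0.23 and 0.37. Of 10 genes of histone gene transcription, 6 were higher and 3 lower. NPAT, the coactivator of the histone loci, was higher at 0.24 and 0.28 and HINFP, which binds H4 promoters, at 0.46 and 0.55. POU2F1, the gene for OCT1, was at 0.44 and 0.91, CRAMP1 at 1.14 and 0.85 and GON4L at 0.62 and 0.63, all higher. E2F1 had 11.8 TPM in siCTGF+KW, 10.7 in siCNT+KW, 64.7 in siCTGF and 62.1 in siCNT, lower in both kahweol libraries. CDK2, which activates NPAT with cyclin E, was lower at -1.03 and -0.89, as was the cyclin E gene CCNE2 at -0.70 and -0.65, and CCNE1 was not called at 0.23 and 0.10.

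Histone mRNA decay genes were 6 higher and 1 lower of 10. TUT7, which adds uridines to histone mRNA, was higher at 1.3 and 1.24, the decapping genes DCP2 at 1.25 and 1.13 and DCP1A at 0.90 and 1.01, and the kinase SMG1 at 0.61 and 0.69. Histone chaperones were 8 lower and 5 higher of 23. CHAF1B, of the chromatin assembly factor that works behind the fork, was lower at -0.99 and -0.98, with ASF1B at -0.93 and -0.75 and TONSL at -0.83 and -1.33. ASF1A, the paralog of ASF1B, was higher at 1.33 and 1.29, with UBN1 at 0.82 and 0.60 and ATRX at 0.42 and 0.60.

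DNA replication and S phase genes were 33 lower and 2 higher of 36, with list medians of -1.04 in siCTGF cells and -0.90 in siCNT cells. PCNA, the sliding clamp, had 175 TPM in siCTGF+KW, 215 in siCNT+KW, 431 in siCTGF and 419 in siCNT. RRM2, a subunit of ribonucleotide reductase, had 44.8 TPM in siCTGF+KW, 59.9 in siCNT+KW, 106 in siCTGF and 105 in siCNT. Both were lower in the kahweol libraries. The fork helicase genes CDC45, at -1.44 and -1.38, MCM5, at -1.52 and -1.3, and MCM4, at -1.50 and -1.27, were lower, with POLE2 at -1.65 and -1.26, and GINS3 was higher at 0.47 and 0.39. G2 and mitosis genes were 4 lower and 1 higher of 18, with list medians of -0.18 and -0.02. CDK1 was lower at -0.98 and -0.66 and TOP2A at -0.80 and -0.58, and MKI67 was not called at -0.57 and -0.0018.

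Other RNAs without a poly(A) tail went the other way, with 9 higher and 0 lower of 14. RN7SK was higher at 0.76 and 0.61, RMRP at 0.60 and 0.61, RPPH1 at 0.62 and 1.15 and RNU1-1, with a mean count of 103, at 1.13 and 1.42. No gene of these lists was called with siCTGF, in a fit that did not call the siRNA target CCN2 either.

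**Figure D5:**
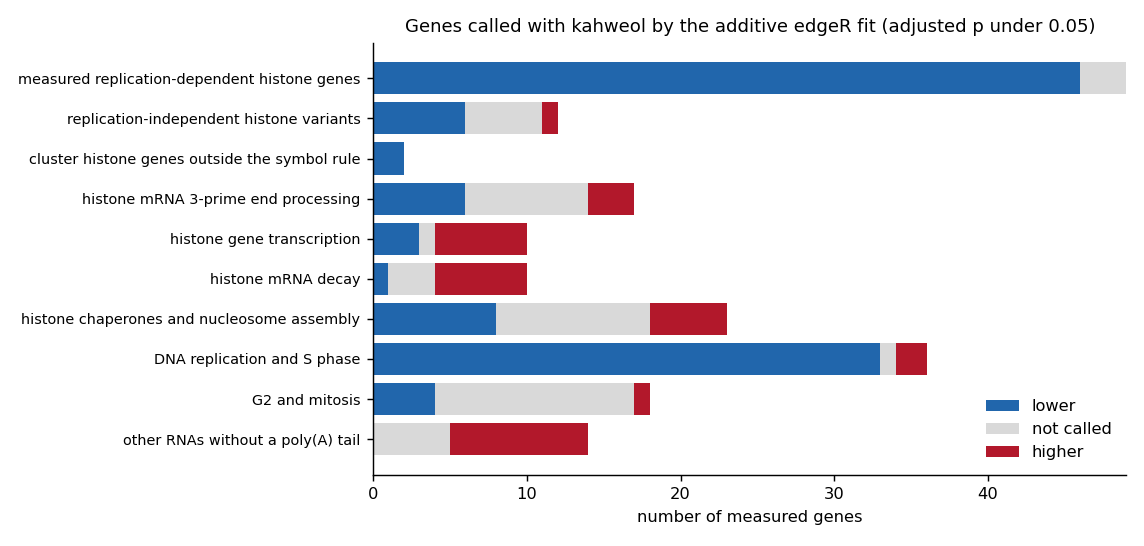
Number of measured genes called lower (left), not called (middle) and called higher (right) with kahweol by the additive edgeR fit, in the histone genes and in 9 lists of related genes. The histone genes (46 of 49 lower) and the DNA replication genes (33 of 36 lower) are nearly all in the lower class.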

How the data were processed

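MDA-MB-231 RNA was sequenced in 4 libraries, 1 for each of siCTGF+KW, siCNT+KW, siCTGF and siCNT. Per the labels, libraries were made with a stranded, ribosomal RNA-depleted total RNA kit. The submitters' processing notes name FastQC 0.11.7, Trimmomatic 0.38, HISAT2 2.1.0, Bowtie2 2.3.4.1, StringTie 2.1.3b and GRCh37.p13. The deposited gene table holds estimated counts from the assembler, with FPKM and TPM computed by the authors, and the deposited per-sample tables hold coverage, an average depth per base. The estimated counts were rounded to whole numbers. FPKM was not used for results and coverage only to find the bases per count.

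Only genes averaging 10 counts or more entered the tests. Log2 fold changes were differences of log2 CPM (TMM, prior count 2), called past 1.3-fold or under 0.7-fold. Exact Clopper-Pearson intervals (95%) took 2 reads as 1 fragment and cover counting error only. The additive test was edgeR 4.0.16 quasi-likelihood (R 4.3.3), with Benjamini-Hochberg adjustment over all 16599 genes, and DESeq2 1.42.0 and limma 3.58.1 as alternatives. The fold changes of the edgeR fit were checked first on counts simulated with kahweol effects only and no interaction with the siRNA. That check does not bear on the p-values in these data. Separate cultures were not named, so the p-values of the additive fit measure only the spread between these libraries, after the siRNA and kahweol terms. That spread was moderated across all genes tested and is not the spread of each gene alone. Shared sequence was counted in 100-base stretches between members only. Named genes were, per type, the 4 measured members with the highest mean TPM, the 3 highest and 3 lowest log2 fold changes per comparison at a mean count of at least 50, members called by the additive fit, up to 4 list genes a direction past the fold threshold in both comparisons of a factor, a fixed set of histone regulators and CCN2. A gene that this rule names is not reported here. The members whose sequences are shown were chosen after their values were seen. The members and lists were chosen with earlier results of these data known.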

Additional observations from a re-analysis of the deposited data

Results flagged for a closer look

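The summed histone mRNA of all measured members moved in opposite directions with siCTGF in the presence and absence of kahweol, with counting intervals that excluded 0 on both sides. The log2 ratio was -0.28 in siCTGF+KW against siCNT+KW and 0.11 in siCTGF against siCNT for all measured members. By type it was -0.24 and 0.16 for H2A, -0.15 and 0.13 for H2B, -0.39 and 0.040 for H3, and -0.30 and 0.16 for H4. For H1 it was -0.38 and 0.02 (-0.0019 to 0.04), an interval without kahweol that includes 0. H2BC6 passed the fold threshold in opposite directions, at -0.57 with kahweol and 0.44 without. H3C6, with a mean count of 35.2, did so too, at -1.51 (-3.91 to -0.18) and 0.74 (-0.08 to 1.64). Each condition was 1 library, so the difference between the comparisons was not tested.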

How the results depend on the processing

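Each summed ratio kept its direction under the alternatives listed in advance, and no named member past a fold threshold changed sign in 960 recalculations over 48 members. Sign changes below the thresholds numbered 2 in the kahweol comparisons, both of H1-6, and 15 in the siCTGF comparisons. The summed ratio was -1.30 with total counts, -1.14 with TMM without small noncoding RNAs and mitochondrial rRNA and -1.42 with TPM in siCTGF+KW against siCTGF, and -0.89, -0.75 and -0.99 in siCNT+KW against siCNT. It was -0.32 with total counts and -0.37 with TPM in siCTGF+KW against siCNT+KW, and 0.090 and 0.056 in siCTGF against siCNT. With thresholds of 2-fold and 0.5-fold, 21 members were under the lower one in siCNT+KW against siCNT, 0 over and 1 under in siCTGF+KW against siCNT+KW, and 0 over in siCTGF against siCNT. With a mean count of at least 1, 2 members were over 1.3-fold in each kahweol comparison, 3 in siCTGF+KW against siCNT+KW, and 6 over with 1 under in siCTGF against siCNT. With log2(TPM + 1), 1 was over in siCTGF against siCNT. Causes were not tested beyond the construction of each alternative, in which fewer or more genes pass. The other 92 of 112 recalculated counts and sums stayed within 1.5 times the main count or inside the counting interval, among them the 46 members lower with kahweol. No paired analysis was possible because the labels number no replicates, beyond the additive fit, whose siRNA term sets each kahweol library against the one of the same siRNA. Counting intervals leave out the variation between cultures, which was not measured.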
